A study of Mus musculus with 8 samples.

Results

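The enzymes described here are the conjugating enzymes and carboxylesterases of the mouse, taken as every gene of the deposited gene table whose name starts with Ugt1a, Ugt2a or Ugt2b, with Gsta, Gstm, Gstp, Gstt, Gstk or Gsto, with Sult1 to Sult5, or with Ces1 or Ces2, followed by the letter or number of a family member. The rule took 75 of 33696 genes. They are 8 Ces1 and 7 Ces2 genes, 9 Ugt1a and 10 Ugt2 genes, 5 Gsta, 7 Gstm and 10 Gstp, Gstt, Gstk or Gsto genes, and 19 Sult genes. Of the 75, 3 had no count in any kept cell (Sult5a1, Sult2a5 and Sult2a6) and 27 had 1 to 200 counts. A mean of at least 20 CPM (counts per 1000000 transcripts) in some cell class and group was reached by 31 members, and 43 passed the filter on low counts in at least 1 comparison.

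These enzymes handle drugs, dietary chemicals, bacterial products, hormones and bile acids. Carboxylesterases cut ester bonds of drugs and lipids. UDP-glucuronosyltransferases (Ugt) add glucuronic acid and sulfotransferases (Sult) add sulfate, each from an activated donor that the cell has to make. Glutathione S-transferases (Gst) add glutathione itself. The products are more soluble and leave the cell through export pumps, and gut bacteria can remove the added group again, which returns the parent compound to the epithelium. In the gut wall such enzymes form a first barrier, and several are known targets of receptors that sense foreign chemicals.

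Single epithelial cells came from the whole colon and cecum of mice that were controls (Ctrl), antibiotic-treated (Abx_4D and Abx_14D) or germ-free (GF). Cells were sorted as EPCAM-positive and CD45-negative, with CD44-positive and CD44-negative cells at 1:1, and were barcoded with a split-pool kit (Parse Evercode WT). The sublibraries mix all conditions, so groups are the loaded-sample names of the deposited cell table, 4 numbered samples per group and tissue. No source used here gives the strain, age or sex, the antibiotics and their doses, or the meaning of 4D and 14D. Cells were pooled by condition before sorting, per the labels, and nothing in the labels ties a sample number to an animal. Any p-value below therefore rests on the spread among loaded samples alone, and that spread may be technical.

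The starts of 5 genes are printed because these genes carry the changes described further down in cecal absorptive-like cells. They are Gsta1 and Gsto1 (2 glutathione transferases that were higher), Ces2a (an esterase that was lower), and Ces2e and Ces1e (esterases that were higher). Each run is 300 bases from RefSeq (build GRCm38.p6; the deposited counts use mm39), read 5′ to 3′ on the gene's strand, from 250 bases before the annotated start to 50 after it. Capitals mark matches to motifs that were searched on both strands.

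Gsta1: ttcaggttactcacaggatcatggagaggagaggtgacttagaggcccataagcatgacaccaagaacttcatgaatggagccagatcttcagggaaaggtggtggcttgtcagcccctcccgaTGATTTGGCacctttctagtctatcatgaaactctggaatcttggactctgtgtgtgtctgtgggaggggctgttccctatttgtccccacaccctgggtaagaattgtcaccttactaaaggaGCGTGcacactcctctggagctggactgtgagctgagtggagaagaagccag

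Gsto1: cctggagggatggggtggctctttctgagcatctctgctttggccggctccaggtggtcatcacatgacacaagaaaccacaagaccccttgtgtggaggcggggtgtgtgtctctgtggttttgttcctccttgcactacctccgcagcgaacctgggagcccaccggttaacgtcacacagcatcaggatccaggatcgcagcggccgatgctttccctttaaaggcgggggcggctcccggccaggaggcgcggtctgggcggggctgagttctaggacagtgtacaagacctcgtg

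Ces2a: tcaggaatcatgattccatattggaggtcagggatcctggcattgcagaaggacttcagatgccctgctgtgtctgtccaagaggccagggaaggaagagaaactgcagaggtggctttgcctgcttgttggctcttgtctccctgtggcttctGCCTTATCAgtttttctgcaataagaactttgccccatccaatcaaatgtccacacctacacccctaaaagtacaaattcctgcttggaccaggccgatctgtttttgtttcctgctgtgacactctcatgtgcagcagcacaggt

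Ces2e: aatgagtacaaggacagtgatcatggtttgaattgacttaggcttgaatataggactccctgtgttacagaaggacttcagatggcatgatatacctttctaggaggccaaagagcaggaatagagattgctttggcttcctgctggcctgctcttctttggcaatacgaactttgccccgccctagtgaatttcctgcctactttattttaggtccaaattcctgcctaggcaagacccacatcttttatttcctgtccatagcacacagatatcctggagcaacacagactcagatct

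Ces1e: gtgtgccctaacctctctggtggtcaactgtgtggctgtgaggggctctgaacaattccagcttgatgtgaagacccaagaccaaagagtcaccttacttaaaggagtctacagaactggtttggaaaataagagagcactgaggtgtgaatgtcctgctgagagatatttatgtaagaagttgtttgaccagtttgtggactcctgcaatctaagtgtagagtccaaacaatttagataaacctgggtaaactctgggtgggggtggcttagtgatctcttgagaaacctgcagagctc

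The runs lie at chr9:78230419-78230718 (Gsta1, plus strand), chr19:47854723-47855022 (Gsto1, plus), chr8:104733753-104734052 (Ces2a, plus), chr8:104926010-104926309 (Ces2e, plus) and chr8:93229570-93229869 (Ces1e, minus). The motifs were GCGTG (core of the aryl hydrocarbon receptor site), TGANNNNGC (core of the antioxidant response element, bound by Nfe2l2), GTTAAT (an HNF1 half-site), CAAAGTCCA (HNF4) and TTTATNG (CDX). A stretch may count for more than 1 motif. Gsta1 held 2 matches, GCGTG and TGATTTGGC, and Ces2a held 1, GCCTTATCA, the antioxidant core on the other strand. No motif was found in the windows of Gsto1, Ces2e and Ces1e, which says only that these letters are not there.

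Promoters were matched for 64 members, with 75 entries, since some genes have several starts. GCGTG was in 14 of the 75 (18.7%) against 32.4% of all 32851 promoters of the same length, and TGANNNNGC in 31 (41.3%) against 41.3%. GTTAAT was in 13 (17.3%) against 7.10%, among them Ugt1a1, Ugt1a6a, Ugt1a9, Ugt1a10, Ugt2a3, Gsta3, Sult1a1 and Sult1d1. CAAAGTCCA was in 1 (Sult1b1, 1.33%, against 0.475%) and TTTATNG in 7 (9.33%) against 10.9%. Of the matched members, most Ces1 and Ces2 genes stand together on chromosome 8, the Ugt1a genes on chromosome 1, the Ugt2 genes with Sult1b1, Sult1d1 and Sult1e1 on chromosome 5 and the Gstm genes on chromosome 3. Members of such clusters are close copies, the Ugt1a transcripts share their last exons, and how the authors divided reads between copies is not given, so values of single Ugt1a, Ugt2b, Gstm, Gsta, Ces1 and Ces2 members are uncertain to that extent.

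Kept were 15916 cells with at least 500 transcripts. By group, the cecum gave 1330 (Ctrl), 1511 (Abx_4D), 2296 (Abx_14D) and 1636 (GF) cells, and the colon 3852 (Abx_14D) and 4215 (GF), with 1821737 to 30127065 transcripts per sample. Colon Ctrl and colon Abx_4D samples were not compared. Of the kept cells, 937 share their combination of wells with a cell of another sublibrary, and none of these combinations was shared between loaded samples. Cells were classed by the mean of log2(1 + counts per 10000) over fixed marker genes, with levels set after the data were seen. Absorptive-like cells reach 1.5 for colonocyte markers and stay under 1.5 for stem markers. Crypt-like cells reach 1.0 for stem or cycling markers and stay under 1.5 for colonocyte markers. Goblet-like, tuft-like and enteroendocrine-like cells reach 1.0 for their own markers and are kept out of both of these classes. No member is among these markers. Krt20, a marker of mature cells, averaged 1063 to 1930 CPM in cecal and 549.9 to 622.8 CPM in colon absorptive-like cells, against 5.39 to 7.74 CPM in crypt-like cells. Lgr5, a stem cell marker, averaged 385 to 586 CPM in crypt-like and 5.52 to 9.23 CPM in absorptive-like cells. Summed immune markers stayed at or below 7.22 CPM and summed stroma markers at or below 9.30 CPM in both classes, and Cd3e, Trbc2, Col1a1 and Col3a1 were at 0 in all cecal absorptive-like sums. The small-intestine and Paneth markers, summed, stood at 18.1 to 108 CPM in cecal absorptive-like cells of all samples but Abx_4D 1, which had 356 CPM. Near the gate, within 0.25 of it, lay 675 cecal cells beside 1734 above it, and 557 colon cells beside 480.

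A sample entered a class comparison with the summed counts of its cells if 20 or more of them were in the class. For absorptive-like cells this left Ctrl and Abx_4D with n = 3 in the cecum, since Ctrl 1 (17 cells) and Abx_4D 2 (12 cells) fell out, and n = 4 in the other groups. For crypt-like cells every group had n = 4. A gene is called where the adjusted p of the edgeR quasi-likelihood test, over all genes tested, is under 0.05. CPM is not divided by gene length, so levels are compared within a gene and not between genes.

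Across classes, Ces2a, Ces2b, Ces2c and Ces2e were higher in cecal absorptive-like than in cecal crypt-like cells. Ces2e, which cuts drug and acylglycerol esters, averaged 365 CPM in cecal absorptive-like and 17.1 CPM in cecal crypt-like cells (log2 4.40 ± 0.10, absorptive over crypt, here and below as fold change ± SE), and 82.8 and 5.93 CPM in the colon (3.81 ± 0.14). Ces2c went from 5.42 CPM in cecal crypt-like to 170.0 CPM in absorptive-like cells, Ces2a from 6.03 to 64.0 CPM and Ces2b from 0.139 to 17.6 CPM, with log2 fold changes of 4.96 ± 0.12, 3.14 ± 0.22 and 6.43 ± 0.23. Ces2g was not called in the cecum, at 5.58 CPM in absorptive-like and 7.39 CPM in crypt-like cells (-0.37 ± 0.21), and was higher in absorptive-like cells of the colon (0.61 ± 0.23). The Ces1 genes were split. Ces1d stood higher in crypt-like cells of both tissues (127 against 30.8 CPM in the cecum, 74.7 against 27.6 CPM in the colon), as did Ces1e (29.3 against 15.2 CPM in the cecum). Ces1g, an esterase known for its part in fat handling, was higher in absorptive-like cells of the colon (1.08 ± 0.16), while in the cecum its sign changed with the scaling (-0.32 by library size, 0.17 by TMM and 0.08 by DESeq2). Ces1f was also higher in absorptive-like cells of the colon, at 88.3 against 38.3 CPM (1.20 ± 0.12), and was not called in the cecum with scaling by library size (0.01 ± 0.08).

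Among the sulfotransferases, Sult1b1 (phenols and thyroid hormone) and Sult2b1 (cholesterol and related sterols) stood in absorptive-like cells. Sult1b1 averaged 239.8 against 28.2 CPM in the cecum (log2 3.09 ± 0.10) and 161 against 16.4 CPM in the colon (3.27 ± 0.10). For Sult2b1 the values were 47.0 against 6.96 and 34.1 against 5.55 CPM. Sult1d1, which sulfates catechols, was higher in absorptive-like cells by 1.33 ± 0.07 in the cecum and 1.94 ± 0.09 in the colon. Sult1a1, the phenol sulfotransferase, was higher in cecal crypt-like cells (430.5 against 195 CPM, -1.15 ± 0.09). Sult1c2 was higher in cecal absorptive-like cells (log2 1.02 ± 0.20), but not at the stricter gate (-0.30). Each of these levels can be set beside those of the other members in the plot of absorptive-like against crypt-like means.

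**Figure D1:**
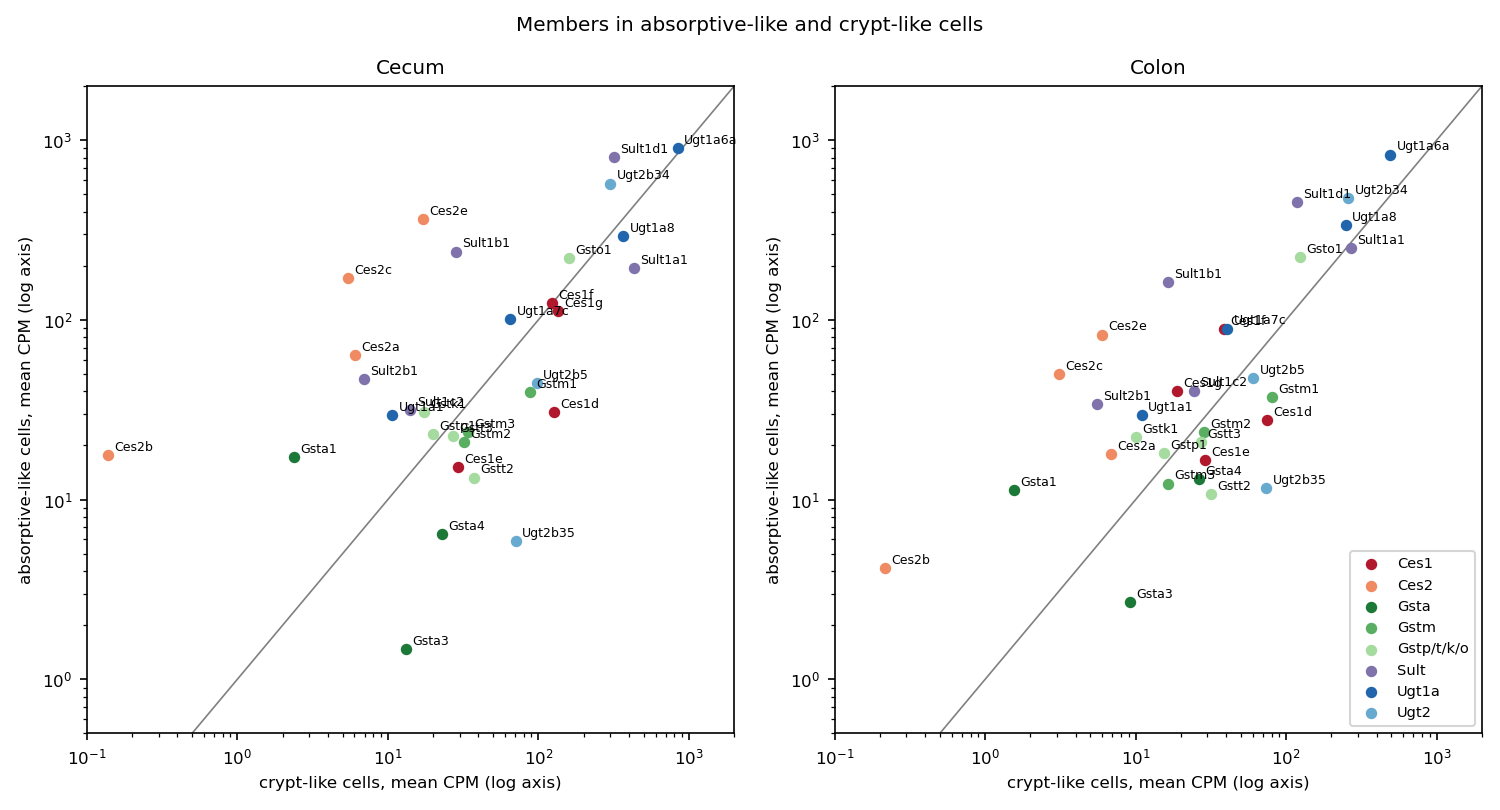
Mean CPM of the 31 members with at least 20 CPM in some class and group, in crypt-like cells (horizontal log axis) and absorptive-like cells (vertical log axis) of the cecum and colon, each the mean of the group means, coloured by family, with the line of equal levels. Ces2a, Ces2b, Ces2c, Ces2e, Gsta1, Sult1b1 and Sult2b1 lie above the line in both tissues, and Ugt2b35, Gsta3, Gsta4, Ces1d and Gstt2 below it.

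The glucuronosyltransferases were split. Ugt1a1, the bilirubin-conjugating enzyme, was higher in absorptive-like cells (log2 1.42 ± 0.11 in the cecum, 1.38 ± 0.16 in the colon), and so were Ugt1a7c (0.57 ± 0.06 and 1.11 ± 0.12) and Ugt2b34 (0.96 ± 0.05 and 0.88 ± 0.07). Ugt2b35 was a crypt gene, at 70.6 against 5.87 CPM in the cecum (-3.58 ± 0.16) and 73.9 against 11.6 CPM in the colon (-2.65 ± 0.12), although it lies in the same cluster as Ugt2b34. Ugt2b5 was also higher in cecal crypt-like cells (-1.14 ± 0.08). Ugt1a6a, which conjugates simple phenols, averaged 905 and 846 CPM in absorptive-like and crypt-like cells of the cecum and was higher in absorptive-like cells in the colon (0.76 ± 0.10). Ugt1a8 in the cecum changed sign with the scaling (-0.31 by library size, 0.17 by TMM and 0.09 by DESeq2).

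Of the alpha-class glutathione transferases tested, Gsta1 was higher in absorptive-like cells (log2 2.90 ± 0.22 in the cecum and 2.85 ± 0.31 in the colon). Its relatives Gsta3 (-3.07 ± 0.25 and -1.81 ± 0.28) and Gsta4, which detoxifies lipid aldehydes (-1.72 ± 0.16 and -1.07 ± 0.21), were crypt genes. Gstt1, Gstt2 and Gstm1 were lower in absorptive-like than in crypt-like cells of both tissues. Gsto1 and Gstk1, the peroxisomal and mitochondrial kappa enzyme, were higher in absorptive-like cells, Gsto1 by 0.42 ± 0.08 and 0.85 ± 0.08 and Gstk1 by 0.83 ± 0.13 and 1.10 ± 0.18. Gstt3 in the cecum changed sign with the scaling (-0.39, 0.10 by TMM and 0.01 by DESeq2).

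In counts, 33 of the 38 members tested in the cecum differed between the classes, 15 higher and 18 lower in absorptive-like cells, with the sample as a block. Most genes did so: 85.3% of all 11056 genes tested were called, 24.0% higher and 61.3% lower. In the colon 32 of 39 members were called, 20 higher and 12 lower, beside 72.5% of all 11125 genes (26.0% higher and 46.5% lower). The shares of members called therefore lie close to those of all genes. The median log2 difference was -0.30 over the members tested and -0.52 over all genes in the cecum, and 0.48 and -0.24 in the colon. Scaling by TMM moved the medians of all genes to -0.03 in both tissues, and the share of higher genes among those called from 28.1% to 48.9% in the cecum and from 35.9% to 48.7% in the colon.

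In goblet-like cells, the mucus makers, levels were pooled over samples with exact Poisson intervals (95%, counting error only). Sult1b1 had 20.1 CPM (18.0 to 22.3) in colon goblet-like cells and 151 CPM (143 to 159) in colon absorptive-like cells. Sult1c2 had 33.9 CPM (31.3 to 36.8) in colon goblet-like, 40.9 CPM (36.8 to 45.3) in absorptive-like and 22.0 CPM (21.0 to 23.0) in crypt-like cells. The spread between samples was wider than these intervals. Over the colon samples, Sult1c2 ranged from 8.85 to 75.6 CPM in goblet-like and from 24.1 to 56.6 CPM in absorptive-like cells. Sult1b1 ranged from 3.78 to 41.7 CPM and from 118 to 245 CPM. In the cecum, 3 of 4 GF samples had absorptive members in their goblet-like sums. Ces2e was at 3.77, 80.9, 78.0 and 189 CPM in goblet-like cells of GF 1 to 4, and between 3.16 and 26.6 CPM in the samples of the other groups, and Sult1b1 was at 3.77, 59.2, 77.2 and 147 CPM. Beside this, the summed absorptive markers in the same sums were 1791, 4019, 4487 and 9277 CPM in GF 1 to 4 and 1859 to 2612 CPM in the other samples, so the GF samples with high Ces2e also had high absorptive markers; the part of these in the member values was not tested.

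In the few enteroendocrine-like cells, the hormone cells, Gstt1 stood high and Ugt1a6a low. Gstt1, a theta-class transferase, had 79.0 CPM (59.0 to 104) over 30 colon enteroendocrine-like cells and 27.1 CPM (10.9 to 55.8) over 11 cecal ones. Its level was 8.03 CPM (7.44 to 8.65) in colon crypt-like, 2.14 CPM (1.29 to 3.34) in absorptive-like, 3.96 CPM (3.08 to 5.01) in goblet-like and 2.11 CPM (0.574 to 5.39) in tuft-like cells. Ugt1a6a had 57.8 CPM (40.9 to 79.3) in colon enteroendocrine-like, 203 CPM (183 to 224) in tuft-like, 163 CPM (157 to 169) in goblet-like and 529 CPM (524 to 534) in crypt-like cells. These intervals are of counts pooled over cells and samples. They cover counting error only and not the spread between cells or samples, so they do not test a difference between classes. No test across samples was made for so few cells, and both genes were singled out after their values were seen.

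In cecal absorptive-like cells, antibiotics and germ-free status were compared with the control, and the 3 comparisons share the same Ctrl samples. After antibiotics 2 glutathione transferases were higher. Gsta1 stood at 11.4, 4.78 and 6.68 CPM in Ctrl 2 to 4, at 19.9, 15.7 and 28.7 CPM in Abx_4D 1, 3 and 4, at 26.3, 20.2, 33.6 and 44.8 CPM in Abx_14D 1 to 4, and at 6.84, 4.90, 7.94 and 14.5 CPM in GF 1 to 4. Each antibiotic sample lay above all Ctrl samples and above all GF samples, while GF and Ctrl overlapped. Here and in all comparisons below, the share of all genes without overlap was not counted. Gsta1 rose in Abx_4D (log2 fold change 1.73 ± 0.43 (SE), adjusted p = 0.0286) and in Abx_14D (log2 fold change 2.31 ± 0.39 (SE), adjusted p = 5.41e-04), and was lower in GF than in Abx_14D (log2 fold change -1.80 ± 0.32 (SE), adjusted p = 0.00133). The Abx_4D call was lost without Abx_4D 4, Ctrl 3 or Ctrl 4 (log2 1.40 to 1.77, adjusted p 0.119 to 0.194), while the Abx_14D call and the difference between GF and Abx_14D held without any 1 sample. That difference was not called at the stricter gate, set at double the level (-1.89, adjusted p = 0.0576), or with all cells summed and no gate (-1.38, 0.342).

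Gsto1, which reduces dehydroascorbate and arsenic species, stood at 116, 119 and 158 CPM in Ctrl, 240.1, 234 and 339 in Abx_4D, 301, 212, 240.0 and 283 in Abx_14D and 209, 209, 205 and 251 in GF. All samples of the 3 other groups lay above all Ctrl samples. Gsto1 rose in each: log2 fold change 1.04 ± 0.20, adjusted p = 0.00336 in Abx_4D, 0.96 ± 0.19, adjusted p = 0.00190 in Abx_14D and 0.72 ± 0.18, adjusted p = 0.0116 in GF. The GF call was lost without Ctrl 3 (log2 0.64, adjusted p = 0.0892) and without the samples over 0.5% mitochondrial transcripts (0.64, 0.0522). Those samples are Abx_4D 2, Abx_14D 3, Abx_14D 4 and GF 4, with medians of 0.565% to 0.663% against 0.221% to 0.485% in the other cecal samples. These medians are over all cells of a sample, and Abx_4D 2 was not in the absorptive-like comparison. In absorptive-like cells alone, samples that stayed in also had medians over 0.5%. They were Ctrl 2 (0.811%), Abx_4D 3 (0.511%), Abx_4D 4 (0.766%), Abx_14D 2 (0.675%), GF 2 (0.587%) and GF 3 (0.592%).

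Ces2a, an intestinal carboxylesterase that hydrolyses drug esters, went the other way. Its levels were 50.2, 174 and 128 CPM in Ctrl 2 to 4, 45.1, 70.1 and 47.4 in Abx_4D, 36.4, 49.5, 49.1 and 49.6 in Abx_14D and 35.4, 53.9, 31.8 and 31.9 in GF. Ctrl 3 and Ctrl 4 lay above all other samples, and Ctrl 2 did not: it lay within the range of the Abx_4D and GF samples and just above the highest Abx_14D sample. Ces2a fell in Abx_4D (log2 fold change -1.16 ± 0.30 (SE), adjusted p = 0.0377), in Abx_14D (log2 fold change -1.41 ± 0.27 (SE), adjusted p = 0.00193) and in GF (log2 fold change -1.72 ± 0.28 (SE), adjusted p = 1.99e-04). The first call was lost without Ctrl 3, Ctrl 4, Abx_4D 1 or Abx_4D 4 (log2 -1.13 to -0.79, adjusted p 0.0944 to 0.287) without the samples over 0.5% mitochondrial (-1.16, 0.0588), and with the sample number as a block (-1.12, 0.0506).

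**Figure D2:**
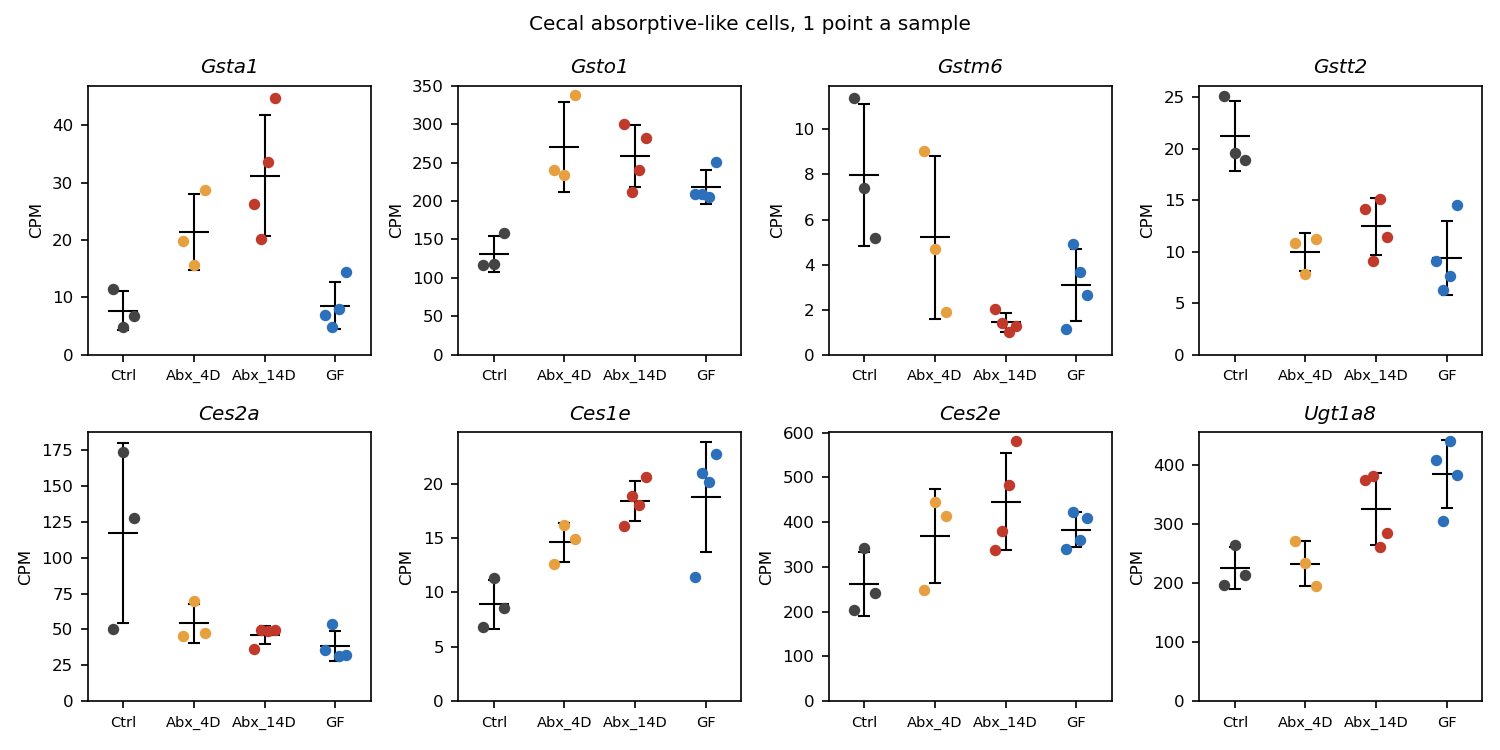
CPM of 8 members in cecal absorptive-like cells, 1 point a sample, by group (Ctrl and Abx_4D n = 3, Abx_14D and GF n = 4), with the mean and SD as bars. Gsta1 is higher in both antibiotic groups than in Ctrl and GF, Gsto1 and Ces1e are above Ctrl in the other groups, and the Ces2a values of Ctrl are spread from 50.2 to 174 CPM.

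The esterases Ces1e and Ces2e were higher in Abx_14D. Ces1e stood at 6.85, 11.3 and 8.54 CPM in Ctrl, 12.6, 16.2 and 15.0 in Abx_4D, 16.2, 18.8, 18.0 and 20.7 in Abx_14D and 11.4, 21.0, 20.1 and 22.7 in GF, without overlap of any group with Ctrl. The lowest GF sample, at 11.4 CPM, lay only just above the highest Ctrl sample, at 11.3 CPM. The Ctrl 2 value, 6.85 CPM, rests on few counts, in a sum of 438165 transcripts. Ces1e rose in Abx_14D (log2 0.97 ± 0.28, adjusted p = 0.0357) and GF (1.04 ± 0.28, adjusted p = 0.0160). Ces2e stood at 203, 342 and 242 CPM in Ctrl and 338, 381, 482 and 581 in Abx_14D, where 1 sample lay within the Ctrl range (log2 0.75 ± 0.22, adjusted p = 0.0419). The Abx_14D call of Ces1e was lost without Abx_14D 2, 3 or 4 or Ctrl 2, 3 or 4 (0.87 to 1.18, adjusted p 0.0565 to 0.189), and its GF call without Ctrl 4 (0.94, 0.109). Ces2e lost its call without Abx_14D 3 or 4, Ctrl 2 or 4, or GF 2 or 3 (0.60 to 0.75, adjusted p 0.0527 to 0.178), by TMM (0.65, 0.0807), by DESeq2 (0.65, 0.0538) and at the stricter gate (0.57, 0.112). DESeq2 did not call Ces1e in Abx_14D (0.88, 0.0737) or GF (0.90, 0.0518), nor was it called in Abx_14D with no low-count filter (0.97, 0.0723).

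Further members called in Abx_14D were Sult2b1 and Gstm6. Sult2b1 stood at 20.5, 28.2 and 42.3 CPM in Ctrl and 34.3, 45.3, 79.2 and 81.7 in Abx_14D (log2 0.94 ± 0.29, adjusted p = 0.049997), with 1 Abx_14D sample inside the Ctrl range. Its call was lost without Abx_14D 3 or 4, Abx_4D 4, Ctrl 2 or 3, or any 1 GF sample (0.77 to 0.94, adjusted p 0.0513 to 0.230), by TMM (0.84, 0.0630) and by DESeq2 (0.85, 0.0538). Gstm6, a mu-class transferase with near copies beside it, fell from 11.4, 7.38 and 5.20 CPM in Ctrl to 2.02, 1.40, 1.02 and 1.27 in Abx_14D (log2 -2.44 ± 0.54, adjusted p = 0.00608). Its Abx_14D values rest on few counts, in sums of 990358 to 6878417 transcripts. So does its Ctrl 2 value, in a sum of 438165 transcripts. Without the samples over 0.5% mitochondrial, 4 of the 7 calls of Abx_14D were lost: Sult2b1 (0.30, adjusted p = 0.760), Ces2e (0.44, 0.488), Ces1e (0.90, 0.265) and Gstm6 (-2.04, 0.252).

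In GF against Ctrl, 3 members of the Ugt1a locus were called together. Ugt1a8 stood at 196, 265 and 213 CPM in Ctrl and 408, 306, 442 and 384 in GF (log2 0.76 ± 0.19, adjusted p = 0.00891). Ugt1a6a stood at 662, 857 and 674 CPM in Ctrl and 1269, 948, 1129 and 1334 in GF (0.68 ± 0.17, adjusted p = 0.0122). In both genes every GF sample lay above every Ctrl sample. Ugt1a1 stood at 27.4, 20.4 and 14.8 and 41.1, 31.5, 25.0 and 42.5 CPM (0.85 ± 0.28, adjusted p = 0.0489), with 1 GF sample inside the Ctrl range. Since these transcripts share exons, the 3 calls are not independent. Without Ctrl 4, Ugt1a8 (0.72, adjusted p = 0.0571) was not called, and Ugt1a6a lost its call without Ctrl 2 or Ctrl 4 (0.61 to 0.62, 0.0523 to 0.0742). Ugt1a1 lost its call without Abx_14D 2, 3 or 4, Ctrl 3 or 4, or GF 1, 2 or 4 (0.62 to 0.91, 0.0550 to 0.280), with the sample number as a block (0.83, 0.0596), by TMM (0.71, 0.0772) and by DESeq2 (0.69, 0.104).

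Gstt2 fell in GF, from 25.1, 19.5 and 18.9 CPM in Ctrl to 9.12, 6.29, 7.66 and 14.5 in GF (log2 -1.06 ± 0.31, adjusted p = 0.0247), without overlap. It was not called without Ctrl 2, 3 or 4 or GF 2 or 3 (-1.14 to -0.93, adjusted p 0.0559 to 0.0886) or at the stricter gate (-0.83, 0.310). Without the samples over 0.5% mitochondrial, Ces1e (0.94, adjusted p = 0.0786) and Ugt1a1 (0.71, 0.173) were not called in GF either. With all cells summed and no gate, so that every class counts, the calls against Ctrl that held were Ces1e in Abx_14D and Ces1e, Ugt1a6a and Ugt1a1 in GF.

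In counts, 3 of 38 tested members were called in Abx_4D (2 higher and 1 lower), beside 3.03% of all 9942 genes (1.43% higher and 1.6% lower). In Abx_14D 7 of 38 were called (5 higher, 2 lower), beside 7.27% of all genes (3.81% and 3.46%), and in GF 7 of 38 (5 higher, 2 lower), beside 12.4% (6.89% and 5.52%). The members' medians were -0.11, 0.11 and 0.07 (log2), beside 0.09, 0.09 and 0.16 over all genes tested. By TMM the median of all genes in GF was 0.03, and the share of higher genes among those called went from 47.2% to 36.3% in Abx_4D, from 52.4% to 41.1% in Abx_14D and from 55.5% to 40.4% in GF. Set against GF, Abx_14D differed in 1 of 38 members, Gsta1, beside 3.45% of all genes. Between Abx_14D and Abx_4D none of 38 was called by edgeR or DESeq2, beside 0.0604% of all genes, and 3 members had an unadjusted p under 0.05. The levels of the other abundant sulfotransferases overlapped between all groups: Sult1d1 ranged from 644, 978 and 835 CPM in Ctrl to 765, 878, 581 and 1105 in GF, and Sult1b1 from 188 to 321 CPM over the 14 samples.

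Genes that serve these enzymes were counted from lists chosen with earlier results of these data known. Of 12 tested genes for cofactor supply, 0 were called in Abx_4D and 1 in Abx_14D and GF: Ugdh, which makes UDP-glucuronic acid, the donor of the Ugt enzymes, rose by 1.06 ± 0.18, adjusted p = 5.55e-04 in Abx_14D and by 1.12 ± 0.18, adjusted p = 1.96e-04 in GF (log2). Of 19 other drug-metabolising enzymes, 2 rose in each of the 3 groups, Aldh1a1, a retinal dehydrogenase (1.74 ± 0.20, 2.18 ± 0.20 and 2.01 ± 0.19 in Abx_4D, Abx_14D and GF), and Ugt8a, which makes galactosylceramide, and 2 fell in GF (Por and Tst). Por, the reductase that feeds cytochromes P450, fell in GF (log2 -0.75 ± 0.19, adjusted p = 0.0116). Of 13 regulators none was called in the antibiotic groups and 2 rose in GF, Ahr (0.89 ± 0.26, adjusted p = 0.0290) and Ppara (0.86 ± 0.23, adjusted p = 0.0181). Of 9 export and deconjugation genes none was called.

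Clock genes moved with the same groups. Of 12 tested, 1 rose in Abx_4D, 5 rose in Abx_14D, and 6 rose and 3 fell in GF. The repressor Nr1d1 was higher by 1.55 ± 0.25 in Abx_14D and 1.34 ± 0.25 in GF, the output factor Tef by 2.16 ± 0.38 and 2.97 ± 0.38, while the activator Arntl was lower in GF (-0.81 ± 0.19). Several conjugating enzymes are known to cycle through the day. The hour of sampling is not given, and the part of the clock in the member changes was not tested. Of 13 dissociation stress genes, 4 fell in GF (Ier3, Btg2, Zfp36 and Jun) and none was called in the antibiotic groups.

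In cecal crypt-like cells, a partly different set of members was called, again with shared Ctrl samples. Ces1e stood at 17.7, 16.8, 20.6 and 16.5 CPM in Ctrl 1 to 4, 36.0, 20.1, 31.5 and 25.8 in Abx_4D, 24.8, 39.6, 30.7 and 36.4 in Abx_14D and 33.7, 39.4, 38.4 and 41.3 in GF. All Abx_14D and GF samples lay above all Ctrl samples. It rose in Abx_14D (log2 fold change 0.88 ± 0.19 (SE), adjusted p = 0.0104) and in GF (log2 fold change 1.09 ± 0.19 (SE), adjusted p = 9.62e-04), as in absorptive-like cells. Ces2g stood at 4.42, 3.59, 3.74 and 3.81 CPM in Ctrl, 12.4, 7.01, 13.1 and 12.4 in Abx_14D and 7.75, 8.01, 11.4 and 10.3 in GF, without overlap (log2 1.53 ± 0.33, adjusted p = 0.0124, and 1.28 ± 0.34, adjusted p = 0.0317). Ces2e, low in this class, went from 9.94, 7.18, 9.35 and 13.3 CPM in Ctrl to 17.2, 15.7, 33.9 and 35.0 in Abx_14D (1.33 ± 0.29, adjusted p = 0.0125).

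Among the glucuronosyltransferases of crypt-like cells, Ugt2b36 stood at 4.42, 1.60, 5.61 and 2.22 CPM in Ctrl, 6.62, 10.9, 11.3 and 7.05 in Abx_14D and 12.8, 8.01, 11.3 and 17.0 in GF, and rose in both (log2 1.44 ± 0.36, adjusted p = 0.0344, and 1.86 ± 0.36, adjusted p = 0.00324). Ugt1a1 went from 6.07, 11.2, 7.01 and 6.03 CPM in Ctrl to 20.3, 13.4, 14.8 and 19.6 in GF (1.15 ± 0.23, adjusted p = 0.00348), and its Abx_14D samples, at 9.94, 10.1, 9.72 and 9.31 CPM, lay within the Ctrl range. Ugt2b5 went from 85.0, 59.1, 80.4 and 67.2 CPM in Ctrl to 99.8, 114, 102 and 159.6 in GF (0.70 ± 0.17, adjusted p = 0.0145). None of these GF groups overlapped Ctrl, and the share of all genes without overlap was not counted. The Ctrl values of Ugt2b36 rest on few counts, in sums of 1811321 to 3153129 transcripts.

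The members that fell in crypt-like cells were alpha-class glutathione transferases, the family in which Gsta1 rose in absorptive-like cells. Gsta3 stood at 25.9, 21.6, 20.1 and 18.4 CPM in Ctrl, 15.4, 6.34, 10.4 and 9.54 in Abx_4D, 11.6, 9.07, 6.36 and 9.88 in Abx_14D and 13.6, 8.33, 12.03 and 12.4 in GF. Every sample of the other 3 groups lay below every Ctrl sample. Gsta3 fell in Abx_14D (log2 -1.22 ± 0.24, adjusted p = 0.00508) and in GF (-0.88 ± 0.24, adjusted p = 0.0348). Gsta4 fell in GF, from 40.3, 28.7, 25.2 and 34.3 CPM in Ctrl to 12.1, 11.5, 17.2 and 15.0 in GF (-1.19 ± 0.24, adjusted p = 0.00506). The Abx_14D samples, at 19.0, 15.5, 18.4 and 27.7 CPM, overlapped Ctrl.

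**Figure D3:**
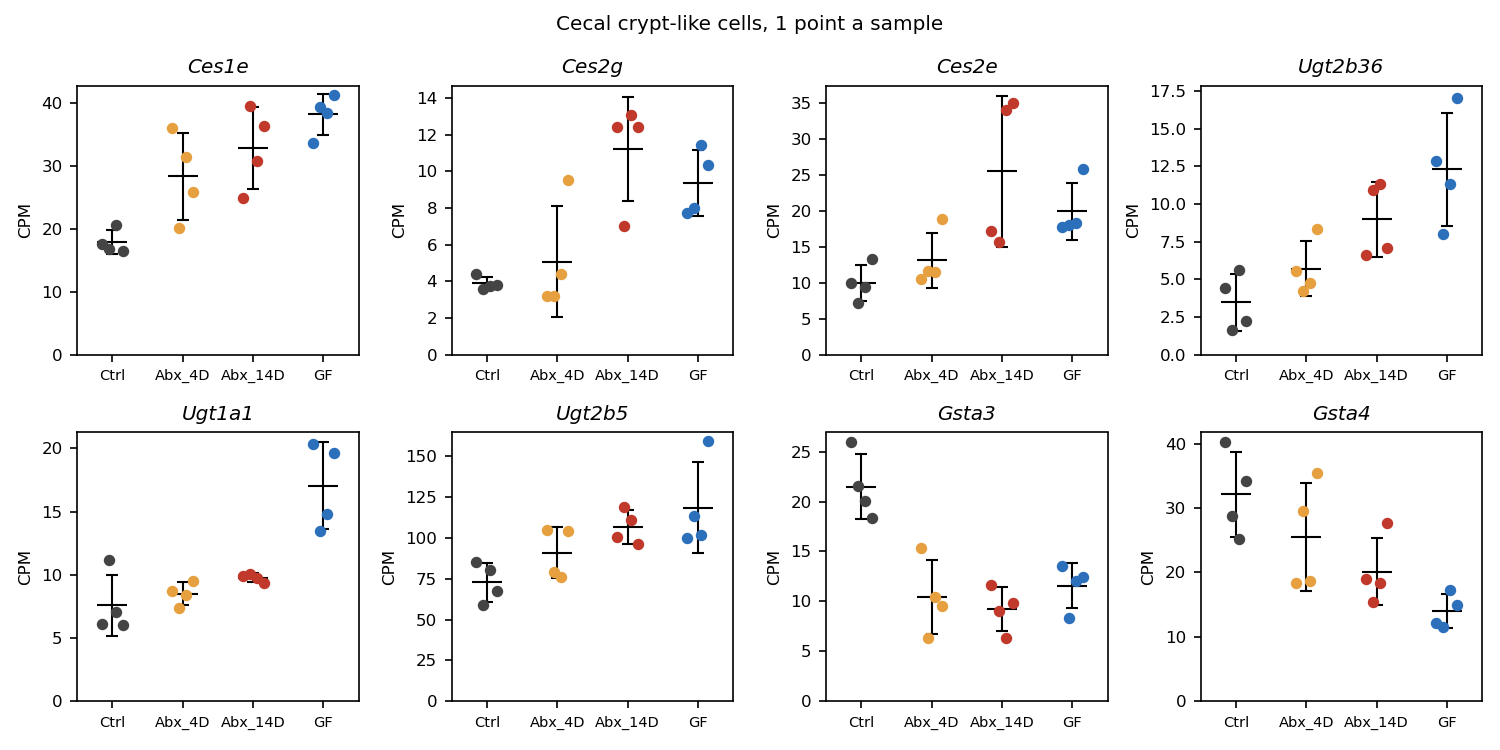
CPM of 8 members in cecal crypt-like cells, 1 point a sample, by group (n = 4 each), with the mean and SD as bars. Ces1e, Ces2g, Ugt2b36 and Ugt2b5 are above Ctrl in Abx_14D and GF, Ugt1a1 in GF, and Gsta3 is below Ctrl in the 3 other groups.

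Several of these calls rested on single samples. In Abx_14D, Ces2e lost its call without Abx_14D 3 or Ctrl 2 (log2 1.15 to 1.20, adjusted p 0.0541 to 0.0569) and Ugt2b36 without Abx_14D 2 or 3 or Ctrl 2 or 4 (1.21 to 1.34, 0.0837 to 0.125). In GF, Gsta3 lost its call without Ctrl 1, 2 or 3 or GF 2, 3 or 4 (-0.90 to -0.75, 0.0550 to 0.111), Ces2g without any 1 Ctrl sample or GF 3 or 4 (1.14 to 1.34, 0.0592 to 0.119) and Ugt2b5 without Ctrl 2 or 4 or GF 4 (0.53 to 0.66, 0.0508 to 0.0643). Without the samples over 0.5% mitochondrial, none of the 5 Abx_14D calls remained, with Ces1e at 0.85 (adjusted p = 0.0842), Gsta3 at -1.05 (0.0928), Ugt2b36 at 1.40 (0.154), Ces2g at 1.32 (0.162) and Ces2e at 0.71 (0.328). In GF, Ces2g (1.25, 0.0843) and Ugt2b5 (0.53, 0.0834) were then not called. At the stricter gate Ces2e (1.36, 0.0608), Ces1e (0.76, 0.104), Ugt2b36 (1.28, 0.160) and Ces2g (1.52, 0.195) were not called in Abx_14D, nor were Ugt1a1 (1.01, 0.0701), Gsta3 (-1.05, 0.102), Ugt2b5 (0.64, 0.111) and Ces2g (1.40, 0.235) in GF.

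By count, none of 40 tested members was called by edgeR in Abx_4D crypt-like cells, beside 0.581% of all 11869 genes (0.126% higher and 0.455% lower), while DESeq2 called 2 and 5 members had an unadjusted p under 0.05. In Abx_14D 5 of 40 were called (4 higher, 1 lower), beside 2.75% (0.775% and 1.97%), and in GF 7 of 40 (5 higher, 2 lower), beside 4.85% (1.88% and 2.97%). The members' medians were 0.05, 0.24 and 0.18, and 0.03, 0.03 and -0.01 over all genes. GF did not differ from Abx_14D in any of 40 members by edgeR (1 by DESeq2, 6 with an unadjusted p under 0.05), beside 0.329% of all genes. Abx_14D and Abx_4D differed in none by either tool (4 with an unadjusted p under 0.05), beside 0.0927%. The summed absorptive markers in crypt-like cells stood at 1638 to 2349 CPM in Ctrl, 1606 to 2131 in Abx_14D and 1602 to 2330 in GF, so the groups overlapped in this sum. Cells over the colonocyte gate are kept out of this class, which limits this sum. Of its single markers, Slc26a3, the chloride exchanger of colonocytes, averaged 58.0 ± 19.4 CPM (SD, n = 4) in Ctrl, 79.6 ± 22.0 in Abx_14D and 111 ± 20.5 in GF. Car4, a carbonic anhydrase, averaged 57.6 ± 18.6, 61.4 ± 14.6 and 83.1 ± 13.6 CPM, and the part of these markers in the member changes was not tested.

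Of the crypt lists, 1 of 13 cofactor genes rose in Abx_14D (Ugdh, 0.50 ± 0.13, adjusted p = 0.0467) and 1 fell in GF (Slc7a11, the cystine importer). Of 20 other drug-metabolising enzymes, 1 rose (Aadac, a microsomal esterase, 0.99 ± 0.23, adjusted p = 0.0222) and 1 fell (Akr1b8) in Abx_14D, and 1 rose (Aadac, 0.92 ± 0.24, adjusted p = 0.0257) and 2 fell (Akr1b8 and Aldh1a1) in GF. Aldh1a1 thus fell in crypt-like cells of GF (-0.89 ± 0.21, adjusted p = 0.0149), where it rose in absorptive-like cells. Of 12 regulators 1 rose in GF (Ppara, 0.81 ± 0.16, adjusted p = 0.00417), and of 9 export genes 1 rose in GF, the efflux pump Abcg2 (0.84 ± 0.16, adjusted p = 0.00338). Of 11 clock genes 1 was called, Cry1, lower in GF.

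In the colon, GF was compared with Abx_14D, which leaves out the control. Sult1a1 was the 1 member of 29 called in absorptive-like cells, beside 1.46% of all 8841 genes. It stood at 316, 291, 251 and 425 CPM in Abx_14D and 219, 160.2, 120.0 and 213 in GF, without overlap, and was lower in GF (log2 fold change -0.85 ± 0.19 (SE), adjusted p = 0.0360). Leaving out Abx_14D 1 or 4 or GF 2 or 3 ended the call (-0.86 to -0.69, adjusted p 0.0914 to 0.142). Gsto1 stood at 252, 241, 272 and 269.7 CPM in Abx_14D and 197, 177, 174 and 208 in GF, also without overlap, and was not called (log2 -0.46 ± 0.12, adjusted p = 0.0974). Sult1d1 and Ces2e did not overlap either and were not called, and the share of all genes without overlap was not counted. For Gsta1, called lower in GF than in Abx_14D in the cecum, the colon values of 10.8, 7.10, 6.12 and 24.9 CPM and 11.0, 5.44, 8.78 and 16.3 CPM overlapped.

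In colon crypt-like cells none of 39 members was called by edgeR between GF and Abx_14D, beside 1.07% of all 12768 genes, while DESeq2 called 3 and 8 had an unadjusted p under 0.05. Sult1a1 stood at 314, 329.7, 261 and 314 CPM in Abx_14D and 238, 235, 211 and 242 in GF (log2 -0.40 ± 0.09, adjusted p = 0.0612). Ugt1a6a stood at 514, 451, 379 and 363 CPM in Abx_14D and 595, 579, 523 and 542 in GF (0.39 ± 0.11, adjusted p = 0.161), and Ugt1a8 at 246, 223, 186 and 183 and 310.0, 299.6, 282 and 264 CPM (0.46 ± 0.11, adjusted p = 0.0547). In each of the 3 genes the groups did not overlap, nor did they in Gstt1 and Gsta3, which were not called either. The share of all genes without overlap was not counted.

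Between tissues, 6 of the 9 esterases tested in absorptive-like cells, a part of the 35 members tested, were called lower in the colon of both groups. Of all 9544 genes tested, 7.6% were called lower in Abx_14D and 5.32% in GF. In absorptive-like cells of Abx_14D, Ces2e stood at 338, 381, 482 and 581 CPM in the cecum and 118, 78.1, 87.2 and 104 in the colon, and in GF at 339.8, 423, 359 and 409 and 77.6, 71.5, 58.5 and 67.7 CPM. The tissues did not overlap in either group, and Ces2e was lower in the colon (log2 -2.20 ± 0.17, adjusted p = 2.09e-09 in Abx_14D, and -2.45 ± 0.18, adjusted p = 8.80e-10 in GF). Ces2c stood at 147, 193, 206 and 161 CPM in the cecum and 50.04, 39.9, 70.4 and 52.3 in the colon of Abx_14D (-1.76 ± 0.18, adjusted p = 9.24e-08; in GF -1.60 ± 0.18, adjusted p = 7.29e-07). Ces2b (-3.01 ± 0.34 and -1.68 ± 0.33 in Abx_14D and GF), Ces2a (-1.22 ± 0.23 and -1.21 ± 0.25) and Ces1g (-1.16 ± 0.26 and -1.83 ± 0.26) were lower in the colon as well. The calls of these 5 esterases held without any 1 sample. Ces1f was lower in both groups (-0.82 ± 0.18 and -0.57 ± 0.18), but its GF call was lost without GF 2, 3 or 4 of the cecum or GF 1, 2 or 4 of the colon (-0.58 to -0.54, adjusted p 0.0582 to 0.0905). Ces1d, Ces1e and Ces2g were called in neither group, with log2 changes from -0.26 (Ces1d in GF) to 0.69 (Ces2g in GF).

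Of the sulfotransferases, Sult1d1 stood at 765, 878, 581 and 1105 CPM in the cecum and 377, 376, 408 and 406 in the colon of GF (log2 -1.09 ± 0.19, adjusted p = 1.34e-04), and was lower in the colon of Abx_14D too (-0.63 ± 0.18, adjusted p = 0.0124; 0.0525 at -0.54 without colon Abx_14D 2). Sult1a1, by contrast, was higher in the colon of Abx_14D, at 316, 291, 251 and 425 against 183, 187, 143 and 226 CPM (0.81 ± 0.22, adjusted p = 0.00931), though lower (-0.49) when all cells were summed without a gate. Sult2b1 (-1.09 ± 0.28, adjusted p = 0.00541), Sult1b1 (-0.65 ± 0.19, adjusted p = 0.0152; -0.51, 0.0684 without cecal Abx_14D 4) and Gsta1 (-1.32 ± 0.37, adjusted p = 0.00976) were lower in the colon of Abx_14D. In GF, Sult2b1 (-0.21 ± 0.29) and Gsta1 (0.07 ± 0.44) were not called. Ugt2b35 was higher in the colon of Abx_14D (1.64 ± 0.35, adjusted p = 0.00102) and so was Gsta4 (1.47 ± 0.42, adjusted p = 0.0118; 1.15 to 1.25, 0.0589 to 0.0628 without colon Abx_14D 3 or 4). Calls that hung on single samples were Ugt2b34 in Abx_14D (-0.46 ± 0.15; lost without cecal Abx_14D 3 or 4 or colon Abx_14D 2, 3 or 4, -0.47 to -0.42), Ugt1a6a in GF (-0.52 ± 0.17; lost without cecal GF 1 or 4 or colon GF 1, 2 or 4, -0.55 to -0.42) and Gstp1 in GF (-0.80 ± 0.26; lost without cecal GF 2 or 4 or colon GF 1, 2 or 3, -0.78 to -0.69, and with the sample number as a block within each group, at -0.72). The numbers pair the tissues, since each of the 8 cecum and colon pairs deviated together. The tissue changes and adjusted p values, here and in crypt-like cells, are from fits that ignore this pairing, save where the block is named.

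In all, 14 of 35 tested members were called in Abx_14D, 3 higher and 11 lower in the colon, beside 26.7% of all 9544 genes (19.1% higher and 7.6% lower). In GF 9 of 35 were called, 0 higher and 9 lower, beside 18.0% (12.7% and 5.32%). Most members called were lower in the colon, while of all genes called 71.6% (Abx_14D) and 70.4% (GF) were higher, or 50.7% and 54.6% with TMM scaling. The members' medians were -0.10 and -0.25, and 0.19 and 0.10 over all genes (0.01 and -0.01 by TMM). The difference of the tissue contrast between GF and Abx_14D was called for none of 35 members by edgeR or DESeq2 (6 with an unadjusted p under 0.05), beside 0.105% of all genes, so differences such as those of Gsta1 and Sult1a1 between the groups were not called. Beside this, the summed absorptive markers stood at 10401 to 22839 CPM in the cecum and 7641 to 11522 CPM in the colon of Abx_14D, and at 11087 to 15017 and 9630 to 12472 CPM in GF, and the summed stem markers at 109.5 to 226 CPM in the cecum and 274 to 471 CPM in the colon. Of 12 dissociation stress genes, 4 were higher in the colon of Abx_14D and 7 in that of GF, and the summed small-intestine and Paneth markers stood at 20.7 to 41.1 CPM in the cecum and 74.0 to 140.4 CPM in the colon of GF. The part of these lists in the member differences was not tested. Without the samples over 0.5% mitochondrial, 8 members were called in Abx_14D (Sult2b1, Sult1b1, Sult1d1, Gsta1, Ugt2b34 and Ugt2b35 were not), and Ces1f, Ugt1a6a and Gstp1 were not called in GF.

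**Figure D4:**
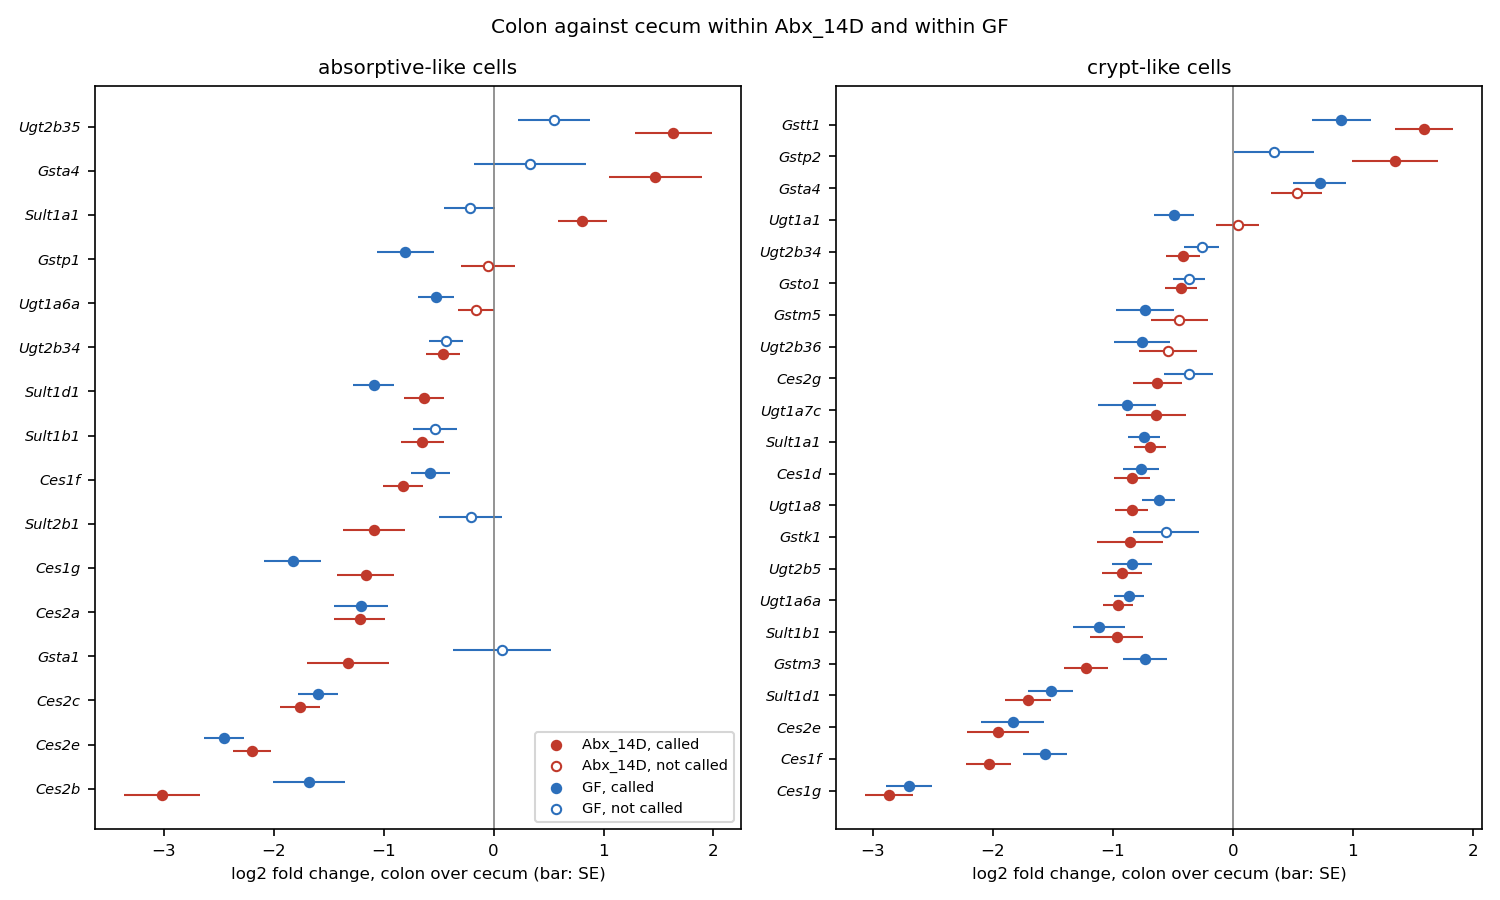
Log2 fold change of colon over cecum (bar, SE) for members called in either group, in absorptive-like cells and in crypt-like cells, with Abx_14D and GF as separate points, filled where called. Ces2b, Ces2e, Ces2c and Ces1g lie farthest to the left in absorptive-like cells of 1 or both groups, and Ces1g, Ces1f and Ces2e in crypt-like cells.

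In crypt-like cells Ces1g stood at 126, 149, 101 and 121 CPM in the cecum and 19.8, 20.2, 9.37 and 16.2 in the colon of Abx_14D (log2 -2.87 ± 0.20, adjusted p = 9.46e-10), and at 133, 131, 141 and 152 and 23.1, 27.9, 15.4 and 17.5 CPM in GF (-2.70 ± 0.19, adjusted p = 2.06e-09). Ces1f (-2.03 ± 0.19 and -1.56 ± 0.18 in Abx_14D and GF), Sult1d1 (-1.71 ± 0.19 and -1.52 ± 0.19), Ces2e (-1.95 ± 0.26 and -1.83 ± 0.26), Ugt1a6a (-0.96 ± 0.13 and -0.87 ± 0.13) and Sult1a1 (-0.69 ± 0.13 and -0.74 ± 0.13) were lower in the colon as well. So were Ces1d, Sult1b1, Ugt2b5, Ugt1a8 and Gstm3, with log2 changes from -1.22 to -0.62 over both groups. The calls of these 11 genes held in every fit that left out 1 sample, and the GF call of Gstm3 was lost at the stricter gate (-0.60, adjusted p = 0.154), that of Ces1d with no gate (-0.50, 0.104) and the Abx_14D call of Sult1b1 without the samples over 0.5% mitochondrial (-0.45, 0.101). Sult1a1 was therefore lower in colon crypt-like cells and, in Abx_14D, higher in colon absorptive-like cells. Gstt1 was higher in the colon of both groups (1.59 ± 0.24 and 0.90 ± 0.25; not called in GF without cecal GF 3, at 0.65, adjusted p = 0.0972, or at the stricter gate, at 0.42, 0.513).

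Other members were called in crypt-like cells of 1 group or on few samples. Gstp2 was higher in the colon of Abx_14D (1.35 ± 0.36, adjusted p = 0.00542) and Gsta4 in that of GF (0.72 ± 0.22; not called without cecal GF 1 or 2 or colon GF 4, 0.51 to 0.65). Ugt1a7c was lower in both groups (-0.64 ± 0.25 and -0.88 ± 0.24), and its calls were lost in Abx_14D without cecal Abx_14D 1, 2 or 3 or GF 4, or colon Abx_14D 1, 3 or 4 or GF 2 or 3 (-0.69 to -0.54), and in GF without cecal GF 3 (-0.69). In Abx_14D, Gsto1 (-0.43 ± 0.13; lost without cecal Abx_14D 4 or colon Abx_14D 3), Gstk1 (-0.85 ± 0.27; without cecal Abx_14D 4, -0.57), Ces2g (-0.63 ± 0.20; without cecal Abx_14D 1, 3 or 4 or colon Abx_14D 1, -0.59 to -0.52) and Ugt2b34 (-0.42 ± 0.14; without cecal Abx_14D 2, 3 or 4 or colon Abx_14D 3 or 4, -0.41 to -0.34) were lower. In GF, Ugt2b36 (-0.76 ± 0.24; lost without cecal GF 1, 3 or 4 or colon GF 1, 2 or 3, -0.81 to -0.61) and Gstm5 (-0.73 ± 0.24; without cecal GF 2, 3 or 4 or colon GF 1, 2 or 3, -0.80 to -0.62) were lower. Ugt1a1 (-0.49 ± 0.17, adjusted p = 0.0493) lost its GF call in 14 of the 16 fits that left out 1 sample (-0.56 to -0.38) and with the block (-0.47). Without the samples over 0.5% mitochondrial, Gsto1, Ugt2b34, Sult1b1, Gstk1, Ces2g and Gstp2 were not called in Abx_14D, nor Gstm5, Ugt2b36 and Ugt1a1 in GF. At the stricter gate Ugt1a7c (-0.61), Ugt2b34 (-0.25) and Ces2g (-0.84) in Abx_14D and Gsta4 (0.43), Gstm5 (-0.62) and Ugt1a1 (-0.29) in GF were not called, and TMM (-0.59) and DESeq2 (-0.59) did not call Ugt1a7c in Abx_14D.

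By count, 18 of 42 members were called in Abx_14D crypt-like cells, 2 higher and 16 lower in the colon, beside 36.7% of all 12728 genes (15.0% higher and 21.7% lower). In GF 17 of 42 were called, 2 higher and 15 lower, beside 17.6% (9.02% and 8.62%). In Abx_14D the share of members is near that of all genes. Medians were -0.44 and -0.45 over the members and -0.07 and -0.03 over all genes. The difference between the groups was called for none of 42 by edgeR or DESeq2 (3 with an unadjusted p under 0.05), beside 0.0% of all genes. Marker levels of the class also differed by tissue. Summed cycling markers stood at 1715 to 3023 CPM in the cecum and 823 to 1076 CPM in the colon of Abx_14D, and at 1471 to 1875 and 869 to 1223 CPM in GF. Summed stem markers stood at 2681 to 3739 and 4149 to 5521 CPM in Abx_14D, and at 3661 to 4226 and 4875 to 5211 CPM in GF. The tissues overlapped in neither list, and the part of these markers in the member differences was not tested.

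The lists below were also chosen with earlier results of these data known. Of 13 genes for cofactor supply in crypt-like cells, 8 were lower and 1 higher in Abx_14D, and 6 lower and 1 higher in GF. Of all genes tested in crypt-like cells, 21.7% were called lower in Abx_14D and 8.62% in GF. Papss2, which makes the sulfate donor, was lower in Abx_14D (log2 -2.91 ± 0.15, adjusted p = 2.53e-11) and in GF (-2.66 ± 0.15, adjusted p = 1.08e-10), while Papss1, which makes the same donor, was the gene called higher. Ugdh was lower in both (-1.68 ± 0.13 and -1.33 ± 0.13). In absorptive-like cells 4 of 12 were lower in both groups (Ugp2, Papss2, Ugdh and Gclc), with Papss2 at -1.85 ± 0.18 and -1.92 ± 0.18, and Papss1 was higher in both. Of all genes tested in absorptive-like cells, 7.6% were called lower in Abx_14D and 5.32% in GF. Of 8 export and deconjugation genes in absorptive-like cells, the same 4 were lower in both groups, the pumps Abcc3, Abcc5, Abcg2 and Abcb1a, and 1 was higher in Abx_14D (Abcc4). Of 20 other drug-metabolising enzymes in crypt-like cells, 11 were lower and 3 higher in Abx_14D and 9 lower and 3 higher in GF, among the lower ones the quinone reductase Nqo1 (-1.83 ± 0.19 and -1.54 ± 0.19).

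Ugt1a9 and Ugt1a10, which share the end of the Ugt1a locus with the other members, were rare and unevenly spread over samples. Over all kept cells, Ugt1a9 stood at 4.66, 0, 6.49 and 0.267 CPM in cecal Ctrl 1 to 4, 6.33, 6.04, 0 and 0 in Abx_4D 1 to 4, 3.75, 5.95, 0 and 2.15 in Abx_14D 1 to 4 and 0, 0.397, 0.0706 and 0.143 in GF 1 to 4. In the colon it stood at 3.05, 2.37, 0 and 2.18 CPM in Abx_14D 1 to 4 and 0.0375, 0.0375, 0.0823 and 0.117 in GF 1 to 4. Samples of Ctrl, Abx_4D and Abx_14D were thus either at 2.15 CPM or more or at 0.267 CPM or less, and all 8 GF samples were at 0.397 CPM or less. In Abx_14D, sample 3 was at 0 in both tissues and samples 1, 2 and 4 were high in both.

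Ugt1a10 had the same samples high: 2.33, 0.435, 5.47 and 0.134 CPM in cecal Ctrl, 2.77, 3.84, 0.200 and 0.151 in Abx_4D, 3.75, 6.32, 0.584 and 1.43 in Abx_14D and 0.895, 0.132, 0.353 and 0.430 in GF, with 2.52, 2.28, 0 and 2.07 in colon Abx_14D and 0.150, 0.449, 0.494 and 0.234 in colon GF. In sums, Ugt1a9 had 52 counts in cecal Ctrl, 97 in Abx_14D and 5 in GF, and 138 in colon Abx_14D and 4 in colon GF. The ratio of summed CPM was 17.9 (95% counting interval 7.22 to 57.6) for cecal Ctrl over GF and 44.9 (17.2 to 167) for colon Abx_14D over GF, and that of Ugt1a10 4.72 (2.56 to 9.17) and 6.51 (4.17 to 10.6). These intervals cover counting error only, and the spread between samples of 1 group is as wide as the difference between groups. Where they passed the filter on low counts, neither gene was called in any class. Ugt1a6b, also rare, had the same samples as the lower ones with smaller gaps, at 7.38, 3.92, 11.6 and 3.74 CPM in cecal Ctrl 1 to 4, 11.5, 12.1, 4.90 and 4.06 in Abx_4D, 9.44, 13.8, 4.22 and 6.93 in Abx_14D and 6.14, 6.30, 2.87 and 6.53 in colon Abx_14D. Its cecal GF samples, at 7.76, 3.44, 5.44 and 6.31 CPM, lay among them. The abundant Ugt1a6a and Ugt1a8 differed less: in cecal Ctrl 1 to 4 Ugt1a6a stood at 754, 693, 747 and 626 CPM and Ugt1a8 at 304, 252, 302 and 231 CPM, with Ctrl 2 and 4 again below Ctrl 1 and 3. The genes were singled out after their values were seen.

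**Figure D5:**
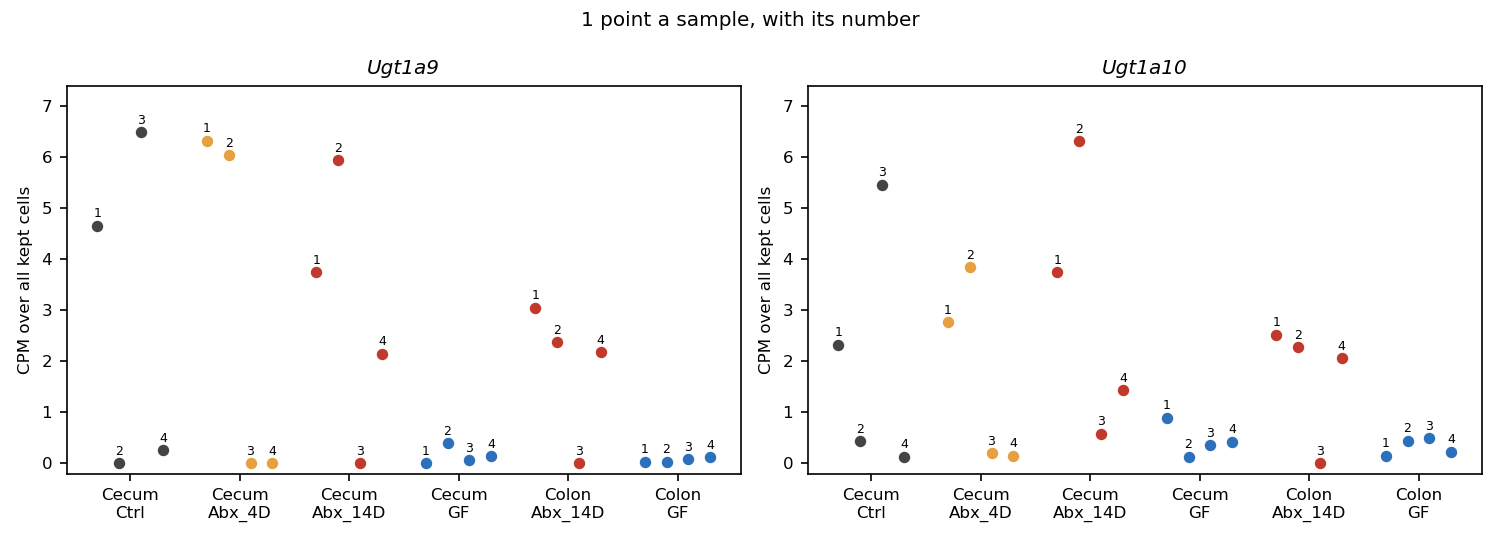
CPM of Ugt1a9 and Ugt1a10 over all kept cells, 1 point a sample with its number, in 4 cecal and 2 colon groups. High and low samples stand side by side within Ctrl, Abx_4D and Abx_14D, and all GF samples are low.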

How the data were processed

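Transcripts of single mouse colon and cecum epithelial cells were analysed from the count matrix that the authors deposited, with 24609 barcodes, 33696 genes and 259517245 transcripts. Its values are raw counts of transcripts per gene and cell, not normalized, and the cell table gives each cell's count total, as deposited by the authors. Per the submitters' processing notes the build was mm39 and Seurat was used, and GRCm39 stands in the gene table. Aligner, counter and use of strand: not given in the sources used here. All 8 deposited samples are sublibraries, and each cell's loaded sample (32 in all) was taken from the cell table.

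Cells with at least 500 transcripts were kept and classed by marker genes, and 327 of 15916 cells (2.05%) passed the gates of 2 classes, among which doublets may be. No doublet caller was run. Counts were summed per sample and class (at least 20 cells). CPM is the member's count per 1000000 transcripts of the sum. Sums of absorptive-like cells held 438165 to 6878417 transcripts in the cecum and 428227 to 2190356 in the colon. Tests between groups used edgeR 4.0.16 in R 4.3.3 (quasi-likelihood, scaled to library sizes, with its low-count filter), over all groups of a tissue, or both tissues, in 1 fit, with Benjamini-Hochberg adjustment over all genes tested and a threshold of 0.05. The classes were compared with the sample as a block. Python 3.11.15 with pandas 2.3.3 was used for sums and tables.

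On data simulated from the real means for GF against Ctrl in cecal absorptive-like cells (9942 genes, 200 changed), 42.2% of 2-fold and 91.4% of 4-fold changes were recovered. In cecal crypt-like cells (11869 genes) it was 74.7% and 98.2%. Apart from the changed genes, all groups were drawn from a common mean, with a spread taken from the trend over all genes. The spread of each single gene was not used, so these rates do not give the power for single members.

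Alternatives were TMM scaling, DESeq2 1.42.0, no low-count filter, the sample number as a block, at least 1000 transcripts a cell, a gate at double the level, all cells without a gate, no samples over 0.5% mitochondrial, and leaving out each sample. Sample numbers were checked for pairing: the correlation of deviations from group means between cecum and colon samples of the same group and number was over 0.1 in 8 of 8 pairs in both classes (0.107 to 0.293 in absorptive-like and 0.151 to 0.631 in crypt-like cells), so these numbers pair the tissues by the data. The main fits of colon against cecum held no term for the number. A block within each group was added as an alternative after seeing the data.

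Named with levels were members with at least 20 CPM in some class and group, and with changes those called in a comparison. Members, lists and tests were chosen with earlier results of these data known. Colon Ctrl (50 cells) and colon Abx_4D (857 cells in sample 1 and 20 to 108 in the others) were not compared.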

Additional observations from a re-analysis of the deposited data

Results flagged for a closer look

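In 8 of 90 groups of 4 samples, 1 sample stood apart from the other 3 by Dixon's criterion, which chance gives in about 1 group in 20. In cecal absorptive-like cells these were Ces2a in Abx_14D 1 (36.4 CPM, the others 49.1 to 49.6), Ces2a in GF 2 (53.9 CPM, the others 31.8 to 35.4) and Gsto1 in GF 4 (251 CPM, the others 205 to 209). In cecal crypt-like cells they were Ces2e in Abx_4D 4 (18.8 CPM, the others 10.4 to 11.6), Ces2e in GF 4 (25.8 CPM, the others 17.7 to 18.3) and Ces2g in Abx_14D 2 (7.01 CPM, the others 12.4 to 13.1). In colon crypt-like cells they were Gsta3 in Abx_14D 4 (5.79 CPM, the others 8.22 to 8.49) and Gsta4 in GF 4 (34.6 CPM, the others 19.4 to 20.9).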

How the results depend on the processing

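Of 416 counts of members called under an alternative, 367 stayed within 1.5 times the reported count, and of 2443 values of single members 2175 kept direction and call, 260 were not called and 8 reversed. In cecal absorptive-like cells, the count of Abx_4D against Ctrl (3) was 0 with all cells and no gate. That of Abx_14D (7) was 4 by DESeq2, 4 with no gate and 3 without the samples over 0.5% mitochondrial, and that of GF (7) was 4 without them. GF against Abx_14D (1) had 4 with no low-count filter, 0 at the stricter gate and 0 with no gate, and in the colon (1) 4 with no filter and 0 with no gate. Colon against cecum in absorptive-like cells had 23 (Abx_14D, for 14) and 22 (GF, for 9) with no gate, 8 in Abx_14D without the samples over 0.5% mitochondrial, and 1 for the difference between the groups (0) with no filter. In cecal crypt-like cells, Abx_4D (0) had 2 by DESeq2, 1 with no filter and 1 with the replicate block. Abx_14D (5) had 8 with no filter, 2 at the stricter gate and 0 without the samples over 0.5% mitochondrial, and GF (7) had 12 and 4 with no filter and the stricter gate. GF against Abx_14D (0) had 1 by DESeq2 and 1 with no filter, and Abx_14D against Abx_4D (0) had 1 with no filter. In colon crypt-like cells (0) TMM gave 1, DESeq2 3, no filter 4, the replicate block 1 and the stricter gate 1. Reversed were Sult1a1 in colon against cecum of Abx_14D with no gate (-0.49) and, between cecal classes, Gstt3 (0.0989 by TMM, 0.0133 by DESeq2), Ces1g (0.168 and 0.0791), Ugt1a8 (0.174 and 0.0939) and Sult1c2 (-0.30 at the stricter gate); the cause was not tested.

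Leaving out 1 sample gave 1 to 3, 4 to 8 and 2 to 8 members for Abx_4D, Abx_14D and GF against Ctrl in cecal absorptive-like cells, 1 to 2 for GF against Abx_14D and 0 to 0 for Abx_14D against Abx_4D. In crypt-like cells the ranges were 0 to 1, 3 to 6, 4 to 8, 0 to 0 and 0 to 1. In the colon they were 0 to 1 (absorptive-like) and 0 to 2 (crypt-like), and for colon against cecum 12 to 15 and 6 to 10 (absorptive-like, Abx_14D and GF) and 15 to 19 and 12 to 17 (crypt-like). The stricter gate could not be fitted for colon absorptive-like cells, which left too few samples. Between cecal groups same-numbered samples deviated together (over 0.1) in 9 of 18 absorptive-like and 17 of 24 crypt-like pairs. The median correlation was 0.09 for same and -0.02 for other numbers in absorptive-like cells, and 0.20 and -0.08 in crypt-like cells. Same numbers thus deviated together in part of the pairs, and the main fits between cecal groups held no term for the number. The block ended the calls of Ces2a in Abx_4D (-1.12) and Ugt1a1 in GF (0.83) in cecal absorptive-like cells.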
